A study of Saccharomyces cerevisiae with 116 samples.

Results

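Ribosome loading of S. cerevisiae mRNAs was measured at T30 and at T0 of a salt stress series, from RNA in sucrose gradient fractions. Of the 116 samples of the series, 40 belong to this experiment: 4 gradients of asynchronous cells, 2 at T30 and 2 at T0, each cut into 9 fractions and accompanied by an input library. Both groups are the budding yeast strain BY4741, a haploid laboratory strain deleted for HIS3, LEU2, MET17 and URA3, grown in YPD, a rich glucose medium, for 7 to 10 generations with no arresting agent. Samples of both times carry the stress label NaCl and no other treatment. T30 was read as 30 min of salt and T0 as the start of the stress, and the labels of these samples state no salt dose. Whether replicates 1 and 2 are separate cultures is not stated, so p-values measure the spread between these gradients. RNA of the fission yeast S. pombe was added to the fractions as a spike, and its reads served to put the fractions of a gradient on one scale.

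A ribosome that starts on an mRNA makes it heavier, so the depth at which an mRNA sediments reflects how many ribosomes it carries. Free messenger ribonucleoprotein particles (the fraction RNP) stay at the top, followed by the small subunit (40S), the large subunit (60S) and single ribosomes (80S), and then by the polysomes, here read as 2R to 5R for rising ribosome number and 6R> for all heavier ones. In budding yeast high salt activates the kinase Hog1 and the transcription factors Msn2 and Msn4, glycerol is made as a compatible solute, and mRNAs for ribosome production are withdrawn. Translation is known to be slowed soon after osmotic shock, and mRNAs such as GCN4 are controlled by short reading frames in their leader.

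Fraction libraries held 365088 to 4352116 S. cerevisiae counts, with the T0 replicate 1 gradient the shallowest at no more than 680118 per fraction. The inputs held 5081617 and 2597668 counts at T30 and 445967 and 1681038 at T0. LEU2, MET17 and URA3 had 0 reads in all 4 inputs, where 3 counts would be 0.59 and 1.15 CPM (the share of an input's S. cerevisiae counts, scaled up) at T30 and 6.73 and 1.78 CPM at T0. HIS3, of which the BY4741 allele retains part, had 13.8 and 14.2 CPM in the T30 inputs and 35.9 and 25.0 CPM in the T0 inputs. Summed over a gradient, S. cerevisiae counts per S. pombe count were 29.5 and 25.8 at T30 and 54.0 and 42.9 at T0, and in the inputs 12 and 10.4 at T30 and 9.14 and 9.56 at T0. For each, the groups did not overlap, with an exact two-sided permutation p of 0.333, the smallest that 2 against 2 gradients can give. The gradient totals were thus lower at T30 and the input totals higher. The reason was not tested, and differences in cells, in RNA per cell and in added spike cannot be told apart in such totals. The values below are therefore shares within a gradient.

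The T30 gradients held less of the RNA in 80S, 2R and 4R and more in 60S, and they differed from each other in the heaviest polysomes. Of all scaled S. cerevisiae counts, 7.55 and 8.59% lay in 80S at T30 against 9.0 and 13.2% at T0, and 4.32 and 5.29% lay in 2R at T30 against 7.22 and 6.61% at T0. The 4R fraction held 4.29 and 6.31% at T30 and 7.76 and 6.33% at T0, and 60S held 6.87 and 12% at T30 and 5.95 and 6.48% at T0. In these 4 of the 9 fractions the groups did not overlap, each at the smallest exact permutation p, 0.333, and in 4R only by 6.31 against 6.33%. The 6R> fraction held 27.5 and 13.1% at T30 and 16.0 and 10.6% at T0, so that T30 replicate 1 stood apart from the other 3 gradients. RNP held 22.8 and 32.6% at T30 and 30.7 and 26.8% at T0. Taking all fractions from 2R on as heavy and RNP to 80S as light, the log2 heavy to light ratio of all counts was -0.17 and -0.93 at T30 and -0.55 and -0.71 at T0, a difference of 0.08 with an exact two-sided permutation p of 1.0. The T0 values lay between those at T30.

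For the median of 5053 genes with at least 10 CPM on average in the inputs, the 80S share was 5.37 and 6.64% at T30 and 8.88 and 12.4% at T0. Its 6R> share was 15.8 and 6.99% at T30 and 8.08 and 4.76% at T0, and here one T30 gradient lay between those at T0. Its RNP share, 31.6 and 43.5% at T30 and 40.8 and 38% at T0, also overlapped between the groups. So did its 2R share, 3.18 and 4.22% at T30 and 5.25 and 3.46% at T0. The same held for its 4R share, 2.99 and 4.31% at T30 and 4.23 and 3.21% at T0. The median gene had 32.0 and 23.2% of its mRNA in the heavy fractions at T30 and 24.6 and 20.02% at T0. On the log2 scale the median ratio averaged -1.41 ± 0.45 at T30 and -1.80 ± 0.27 at T0 (SD, n = 2 each), with an exact two-sided permutation p of 0.667.

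**Figure D1:**
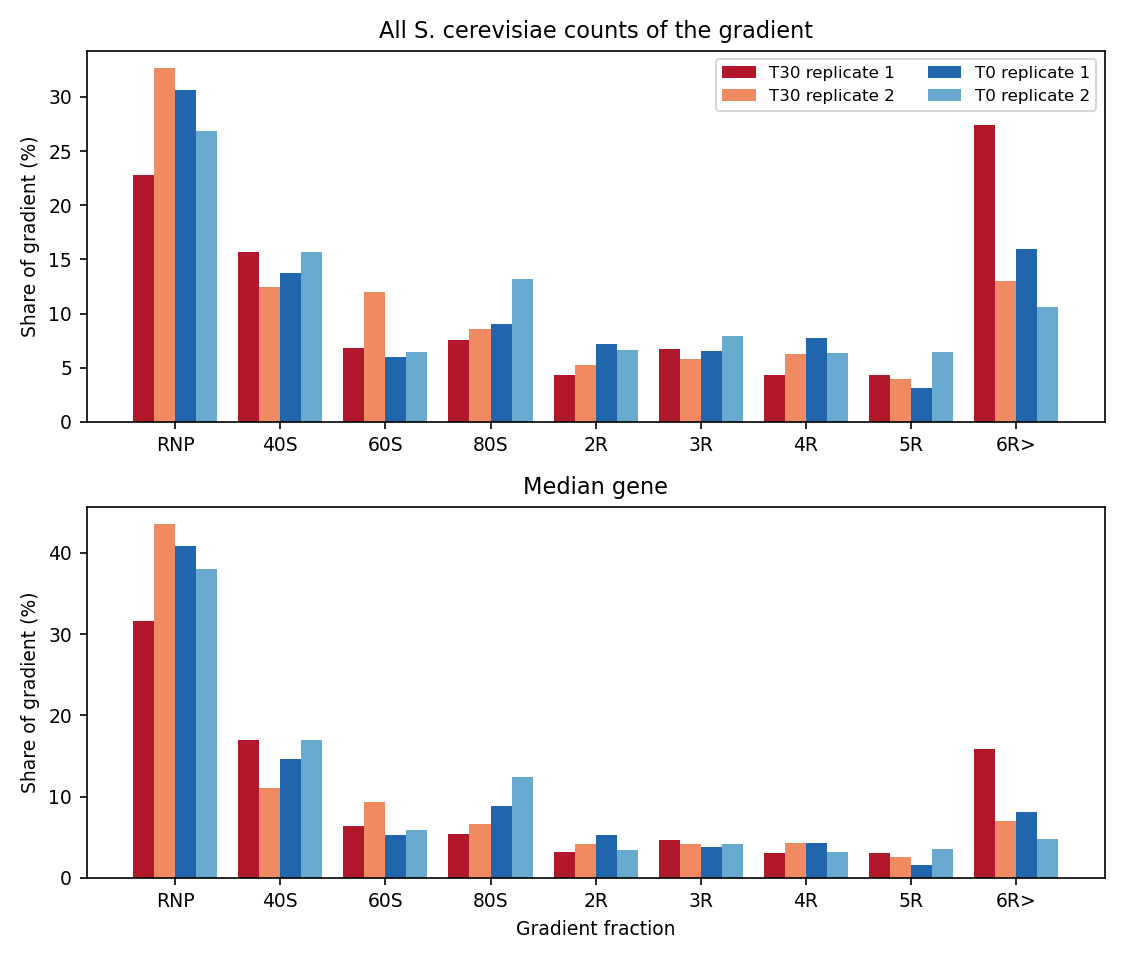
Share of a gradient in each of the 9 fractions, in percent, for all S. cerevisiae counts (top) and for the median gene (bottom). Bars are single gradients, T30 in red tones and T0 in blue tones. The 80S bars are lower in both T30 gradients, and the 6R> bar of T30 replicate 1, 27.5% of all counts, exceeds the other 3.

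The change most genes shared was a smaller 80S share. It fell for 1939 of the 5053 genes (38.4%) and rose for 24 (0.475%; limma on log2 shares, Benjamini-Hochberg adjusted p under 0.05), with a median log2 change of -0.86. In 3832 genes both T30 gradients lay below both T0 gradients, and in 139 both lay above. The count of falls was 112 without T30 replicate 1, 916 without T30 replicate 2 and 542 without T0 replicate 2, and 765 with S. pombe scaling by the median ratio of its genes instead of its total. The median change stayed negative, at -0.48, both in that setting and with each fraction scaled to its own S. cerevisiae total.

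The count of genes with this fall varied by list. Histone mRNAs had it in 8 of 10 genes, cell cycle regulators in 14 of 20, ribosome biogenesis factors in 81 of 135, proteasome subunits in 21 of 35 and mitochondrial ribosomal proteins in 40 of 72. Cytosolic ribosomal proteins had it in 41 of 138, amino acid synthesis enzymes in 1 of 45 and glycolytic enzymes in 0 of 20. The ribosomal protein list, here and below, also holds RPP1, which encodes an RNase P subunit and not a ribosomal protein. For the proteasome 60% of the subunits tested fell, set against 38.4% of all genes.

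Of the 24 genes whose 80S share rose, 8 (33.3%) encode ribosomal proteins and 2 (8.33%) glycolytic enzymes, lists that make up 2.73% and 0.396% of the genes tested. The genes named here were chosen after their values were seen. ASC1, the ribosome-associated homologue of RACK1, had 12.1 and 12.4% of its mRNA in 80S at T30 and 3.24 and 4.61% at T0, a log2 change of 1.67 ± 0.46 (SE, adjusted p = 0.00304). For RPL4A, a large subunit protein, the share was 20.9 and 19.5% at T30 and 5.74 and 8.18% at T0 (1.56 ± 0.34, adjusted p = 0.000154). The T30 values of both genes agreed within a few points and lay far above those at T0. RPL3, another large subunit protein, had 19.0 and 19.3% at T30 and 6.76 and 10.4% at T0 (1.19 ± 0.33, adjusted p = 0.00341). TDH3, the main glyceraldehyde-3-phosphate dehydrogenase, had 11.3 and 12.8% at T30 and 3.63 and 5.80% at T0 (1.39 ± 0.44, adjusted p = 0.00935). IDP1, a mitochondrial isocitrate dehydrogenase, had 18.0 and 18.3% at T30 and 5.66 and 8.96% at T0. In each of these 5 genes the groups did not overlap, but each call was lost when either T30 gradient was left out. STL1, the glycerol symporter, is also among the 24, on 3 and 18 reads in its T0 gradients.

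With all 4 gradients, other fractions changed for fewer genes. In 3R the share rose for 184 genes (3.64%) and fell for 44 (0.871%). In 4R it rose for 57 (1.13%) and fell for 20 (0.396%), and in 2R it rose for 9 (0.178%) and fell for 65 (1.29%). The 60S share rose for 13 genes (0.257%) and fell for 0, with 9 falls at an unadjusted p under 0.05. The RNP share rose for 7 genes (0.139%) and fell for 7 (0.139%), and the 40S share rose for 9 (0.178%) and fell for 6 (0.119%). In 6R> the share rose for 37 genes (0.732%) and fell for 0, with 1 fall at an unadjusted p under 0.05. Many of these rises had a T0 library with 0 reads in the fraction, namely 34 of 37 in 6R>, 6 of 7 in RNP, 8 of 9 in 40S, 7 of 13 in 60S, 6 of 9 in 2R and 27 of 57 in 4R, against 8 of 184 in 3R, so their size is not well measured. The only 5R call was a rise (0.0198%) of PRR2, a protein kinase, with 7.98 and 7.09% at T30 and 0 and 3.34% at T0, and 10 genes fell there at an unadjusted p under 0.05. The order of the fractions rested on single gradients. Without T30 replicate 1 the 60S share rose for 1396 genes, beside 112 falls in 80S. In 5R there were 2471 rises and 36 falls without T0 replicate 2, beside 542 falls in 80S, but 135 rises and 735 falls without T0 replicate 1. Scaling to S. cerevisiae totals turned the median change of 60S from 0.46 to -0.14, of 2R from -0.24 to 0.24 and of 4R from -0.07 to 0.30.

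**Figure D2:**
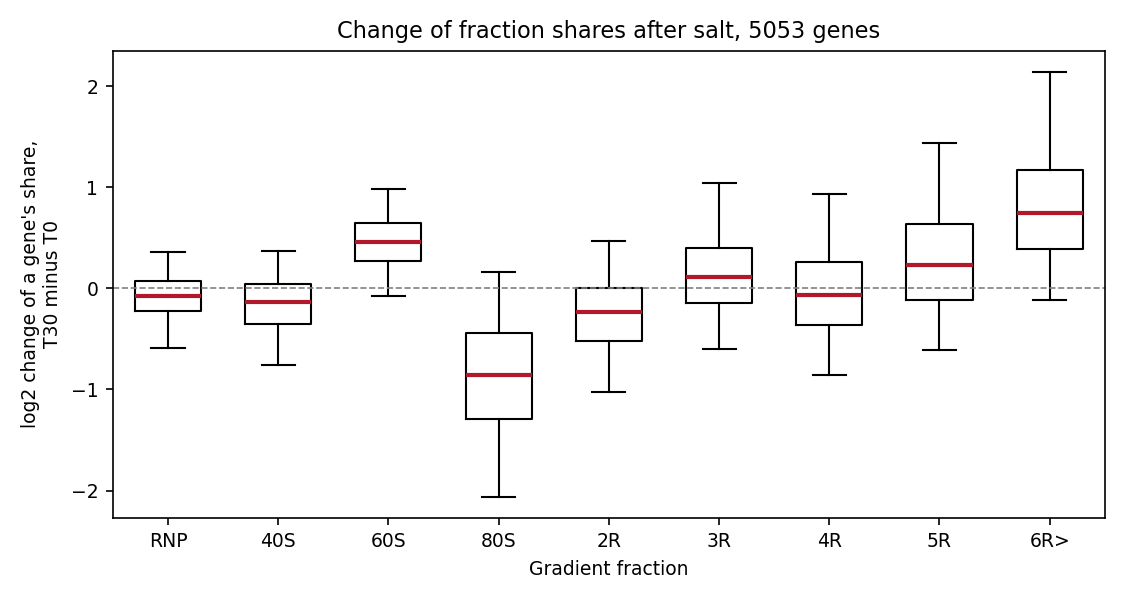
Log2 change of a gene's share in each fraction, T30 minus T0, over 5053 genes. Boxes span the quartiles with the median in red, and whiskers the 5th to 95th percentile. The 80S box lies below 0 (median -0.86) and the 6R> box mostly above it (median 0.74).

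Per gene, loading was summarised as the polysome ratio, log2 of heavy over light. It rose for 109 genes (2.16%) and fell for 8 (0.158%), with a median change of 0.36 over all genes. Groups did not overlap for 1803 genes with both T30 gradients above and 270 with both below. The number of rises depended on single gradients: it was 31 without T30 replicate 1, 459 without T30 replicate 2, 17 without T0 replicate 1 and 2 without T0 replicate 2, with 15, 7, 0 and 1 falls. With fractions scaled to their S. cerevisiae totals there were 1436 rises and 161 falls. Because the median itself moved, the ratio was also taken relative to the median gene of each gradient, a choice made after seeing the data. On that scale 144 genes rose (2.85%) and 158 fell (3.13%), and 97 of the 109 rises were shared. Across genes the ratios of the T30 gradients correlated at r = 0.920 and those of the T0 gradients at r = 0.946, against 0.837 to 0.861 between T30 and T0 (5053 genes, which share libraries and depth). The changes of replicates 1 and 2 correlated at r = 0.605.

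Among called genes with 10 CPM in the inputs at each time, the mRNAs that moved furthest into polysomes encode a mixed set of proteins. Some stress genes that passed the input minimum through T30 only, such as CTT1 and SPI1 below, had larger rises. NCE103, carbonic anhydrase, had 59.8 and 28.1% of its mRNA in heavy fractions at T30 and 13.8 and 7.64% at T0, a log2 ratio change of 2.73 ± 0.48 (SE, adjusted p = 5.77e-06). RTN2, a reticulon of the endoplasmic reticulum, had 29.2 and 22.5% at T30 and 6.83 and 4.49% at T0 (2.56 ± 0.45, adjusted p = 5.04e-06). Neither gene's groups overlapped, and both stayed called relative to the median gene, at 2.33 (adjusted p = 0.00585) and 2.16 (adjusted p = 0.00154). SSA4, the salt- and heat-induced Hsp70, had 46.8 and 30.2% at T30 and 13.8 and 8.44% at T0 (2.34 ± 0.47, adjusted p = 0.000112). SGF11, a subunit of the SAGA deubiquitinating module, had 26.2 and 27.3% at T30 and 7.45 and 6.03% at T0 (2.34 ± 0.44, adjusted p = 3.57e-05). SGF11 is the gene among these whose input change, 1.05 on the log2 scale, did not pass the test (adjusted p = 0.11). In a separate set of RNA-seq libraries of asynchronous cells with S. pombe cells, 3 at T30 and 3 at T0, SGF11 changed by 1.07 (adjusted p = 0.0113).

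The other large rises among genes with 10 CPM at each time included NFG1, a regulator of filamentous growth, and FRE4, a ferric siderophore reductase. GCY1, a glycerol dehydrogenase, and RGI1, needed for respiratory growth, were also among them. Their heavy shares were 65.9 and 43.2% at T30 against 18.2 and 18.6% at T0 for NFG1, and 54.1 and 40.6% at T30 against 14.9 and 14.4% at T0 for FRE4. For GCY1 they were 43.6 and 21.5% at T30 and 14.4 and 4.75% at T0, and for RGI1 78.2 and 63.0% at T30 and 32.4 and 35.2% at T0. In all 4 genes the groups did not overlap, and the log2 changes ran from 2.42 ± 0.56 for NFG1 (adjusted p = 0.00154) to 2.27 ± 0.60 for RGI1 (adjusted p = 0.00973). T0 heavy reads were few: 39 and 72 for NFG1, 16 and 53 for FRE4, 31 and 34 for GCY1 and 46 and 182 for RGI1.

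SSA4 and RTN2 moved in different ways between fractions. For SSA4 the 80S share was 6.29 and 8.53% at T30 and 13.8 and 16.5% at T0 (log2 change -1.04, adjusted p = 0.0168), and the 3R share 4.76 and 5.45% at T30 and 1.35 and 1.78% at T0 (1.70, adjusted p = 0.00463). Its 6R> share was 32.7 and 9.88% at T30 and 5.35 and 1.57% at T0. For RTN2 RNP held 43.7 and 51.3% at T30 and 64.1 and 67.5% at T0, and 6R> held 16.8 and 8.52% at T30 and 0.519 and 0.876% at T0. RTN2 mRNA thus remained mostly in the light fractions at T30, and its 6R> rise was lost when any one gradient was left out.

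The ratio fell for 8 mRNAs, of which FRE7, a putative ferric reductase, had under 10 CPM in both T30 inputs. TOS6, a cell wall protein with a lipid anchor, had 5.93 and 4.82% in heavy fractions at T30 and 29.2 and 24.8% at T0 (-2.70 ± 0.45, adjusted p = 8.11e-07). CCW12, an abundant cell wall mannoprotein, had 16.5 and 13.6% at T30 and 49.9 and 51.8% at T0 (-2.56 ± 0.53, adjusted p = 0.000263). NSR1, the yeast nucleolin that acts in rRNA processing, had 12.8 and 7.84% at T30 and 42.7 and 29.3% at T0 (-2.31 ± 0.46, adjusted p = 9.71e-05). In these 3 genes the lowest T0 value was more than the highest T30 value, and replicates lay close together for TOS6 and CCW12. The T0 gradients held 33152 and 111844 reads of CCW12 and 409 and 1308 of TOS6.

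CIS3, a cell wall protein of the PIR family, had 23.5 and 15.5% at T30 and 53.4 and 48.4% at T0 (-2.13 ± 0.55, adjusted p = 0.00836). SRL1, another mannoprotein, had 8.95 and 9.42% at T30 and 24.5 and 22.5% at T0 (-1.60 ± 0.44, adjusted p = 0.0171). The ribosomal protein mRNAs RPL22B, with 7.20 and 5.11% at T30 and 26.7 and 16.5% at T0, and RPL7B, with 12.6 and 7.88% at T30 and 34.8 and 20.3% at T0, had log2 changes of -2.05 and -1.73 (adjusted p = 0.000641 and 0.00767). All 4 sets of gradients were separate between the groups. FIT3, a cell wall mannoprotein that retains iron siderophores, had 26.3 and 15.5% at T30 and 45.7 and 46.0% at T0, without passing the test (-1.73 ± 0.55, adjusted p = 0.0601), though it did relative to the median gene (-2.13, adjusted p = 0.00165).

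Of these 15 called genes 10 stayed called without T30 replicate 1, 14 without T30 replicate 2, 2 without T0 replicate 1 and 1 without T0 replicate 2. Relative to the median gene all 15 stayed called without T30 replicate 2 or either T0 gradient, and 14 without T30 replicate 1. Their direction was the same in every such fit. With S. pombe median-ratio size factors 8 of the 15 stayed called, and with no filter on the inputs 9. CIS3, RPL22B, RPL7B, SRL1 and RGI1 lost the call in both settings, NFG1 and FRE4 in the first and GCY1 in the second.

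CCW12 mRNA was depleted from small polysomes at T30. Its RNP share was 51.1 and 59.5% at T30 and 31.6 and 25.2% at T0, which did not pass the test (adjusted p = 0.468). Its 3R share was 3.72 and 2.69% at T30 and 12.4 and 15.4% at T0 (-2.13 ± 0.27, adjusted p = 0.00153), and its 4R share 2.10 and 2.79% at T30 and 15.8 and 8.72% at T0 (-2.28, adjusted p = 0.00044). For TOS6 RNP held 81.3 and 85.1% at T30 and 47.7 and 47.1% at T0, a log2 rise of 0.81 ± 0.16 (adjusted p = 0.000394). For NSR1 6R> held 6.21 and 1.67% at T30 and 24.6 and 12.2% at T0, and RNP held 51.1 and 62.2% at T30 and 31.5 and 35.5% at T0, neither of which passed the test. Its calls were in 3R (-1.18, adjusted p = 0.0414) and 4R (-1.71, adjusted p = 0.0309), and both were lost when either T30 gradient was left out.

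GCN4, the activator of amino acid synthesis genes, had more of its mRNA in polysomes at T30 at a lower mRNA level. Its heavy share was 31.2 and 29.9% at T30 and 15.6 and 8.79% at T0, a log2 ratio change of 1.72 ± 0.46 (adjusted p = 0.0112), and 1.32 ± 0.28 relative to the median gene (adjusted p = 0.0206). The T30 gradients agreed closely and lay above both T0 gradients. The 80S share was 11.2 and 9.28% at T30 and 22.4 and 31.7% at T0 (-1.39 ± 0.31, adjusted p = 0.000223). The 3R share was 8.15 and 8.45% at T30 and 2.89 and 1.94% at T0 (1.81 ± 0.27, adjusted p = 0.00328), and the 4R share 3.53 and 6.07% at T30 and 1.48 and 1.20% at T0 (1.80, adjusted p = 0.018). RNP, however, also held more of it, 22.4 and 28.9% at T30 and 12.7 and 11.3% at T0. With RNP alone as the light class its ratio change was 0.29 (adjusted p = 0.959), and the ratio call was also lost without T30 replicate 1 or either T0 gradient. The 80S and 3R calls were lost without either T30 gradient. The GCN4 input had 121 and 248 CPM at T30 and 419 and 316 CPM at T0 (log2 change -1.39, adjusted p = 0.046). In the separate RNA-seq libraries its change was -0.70 (adjusted p = 0.0781).

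Other mRNAs with upstream reading frames mostly changed little. Over all genes 2.16% rose in ratio, or 2.85% relative to the median gene, and the median change was 0.36. Of 20 genes tested with upstream reading frames 2 (10%) rose and 0 fell, both with and without reference to the median gene. Their median change was 0.38. The rises were GCN4 and WSC3, a cell surface sensor of the wall integrity pathway, with 43.8 and 31.8% heavy at T30 and 17.4 and 14.1% at T0 (1.70, adjusted p = 0.0316). CPA1, the arginine-regulated carbamoyl phosphate synthase subunit, had 24.1 and 18.1% at T30 and 17 and 12.6% at T0 (0.63, adjusted p = 0.621). The stress regulator YAP1 had 21.8 and 16.1% at T30 and 14.5 and 11.7% at T0 (0.62), and the cyclin CLN3 23.6 and 19.5% at T30 and 18.4 and 16.0% at T0 (0.40). HAC1, whose unspliced mRNA is held untranslated, had 11.6 and 7.97% at T30 and 10.1 and 8.54% at T0 (0.06).

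**Figure D3:**
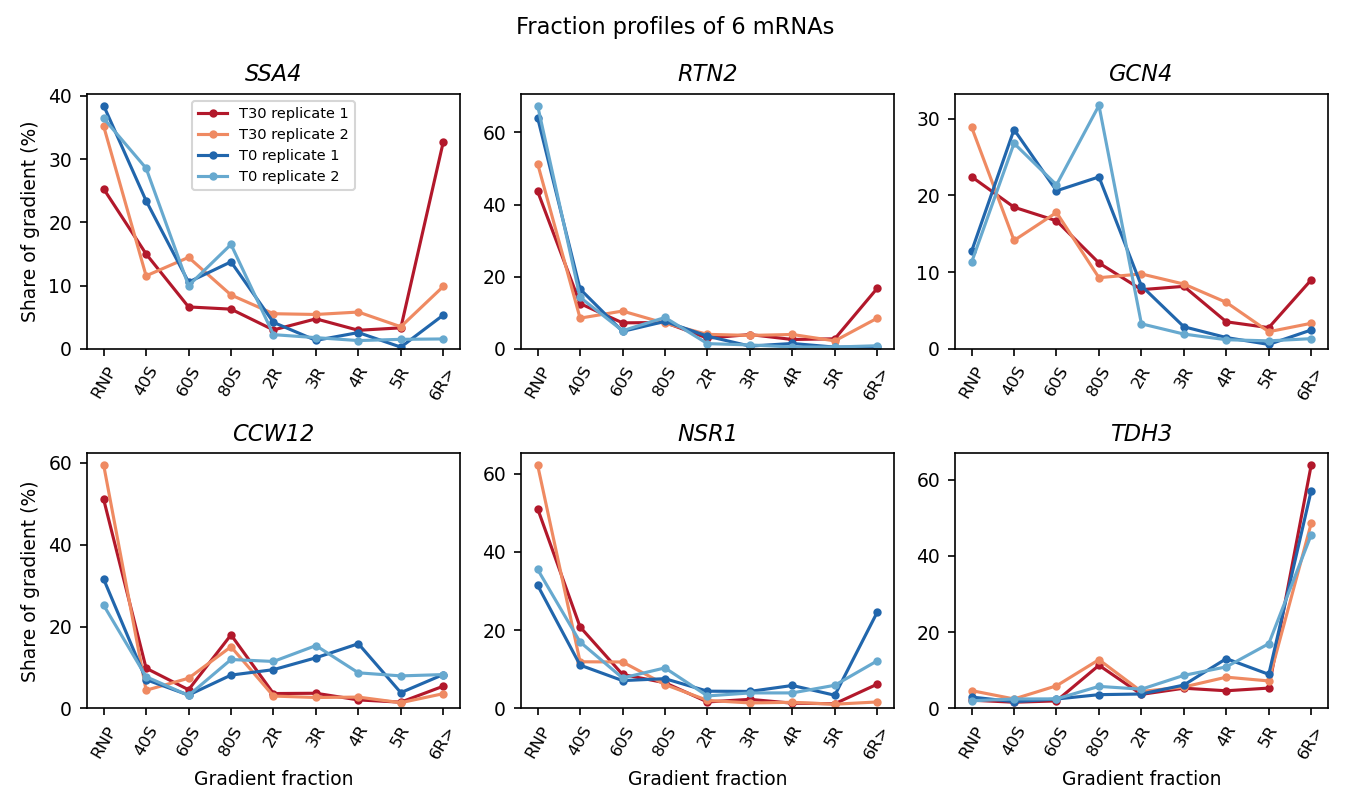
Share of a gene's gradient total in each fraction, in percent, for SSA4, RTN2, GCN4, CCW12, NSR1 and TDH3. Each line is one gradient, T30 in red tones and T0 in blue tones, and vertical scales differ between genes. The 80S peak of GCN4 is lower in both T30 gradients (11.2 and 9.28% at T30 against 22.4 and 31.7% at T0), CCW12 leaves 3R and 4R, and TDH3 keeps its peak in 6R>.

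Among general stress genes, targets of Msn2 and Msn4, most rose in level and a minority in loading. Of the 65 tested, 44 had 10 CPM in the inputs at each time, and of these 4 rose and 0 fell in ratio. Over all 4714 genes with that level 44 rose and 7 fell. The median log2 change was 0.62 in the list and 0.34 over the 4714. In the list the rises were HOR7, MSC1, OM45 and RTN2. Set against the median gene 4 of the 44 list members rose and 1 fell, with a median of 0.25. Over the 4714 genes 97 rose and 147 fell on that scale. The other list members passed the input minimum through T30 only. With them 14 of 65 (21.5%) rose and 0 fell, beside 2.16% and 0.158% of all genes. Relative to the median gene 16 of the 65 (24.6%) rose and 1 fell, beside 2.85% and 3.13% of all genes. The median heavy share of the 65 was 55.3 and 35.5% at T30 and 34.6 and 27.1% at T0. In the inputs 61 of 68 rose and the summed level was 104870 and 80226 CPM at T30 and 5012 and 5139 CPM at T0. CTT1, the cytosolic catalase, had 63.1 and 44.8% heavy at T30 and 11.4 and 7.54% at T0 (3.52 ± 0.50, adjusted p = 2.42e-09), with RNP at 12.9 and 23.2% at T30 and 55.9 and 48.6% at T0. SPI1, a stress-induced cell wall protein, had 69.9 and 52.4% at T30 and 11.0 and 10.6% at T0 (3.72, adjusted p = 3.77e-09). Both were read thinly at T0, with 109 and 405 gradient reads for CTT1 and 46 and 204 for SPI1. The same held for the 109 rises as a whole: their median T0 gradient totals were 109 and 338 reads, against 408 and 1240 over all genes. Only 52 of the 109 had 10 CPM in the inputs at each time. The part of depth in these changes was not tested.

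Other stress mRNAs did not pass the test. HSP12, a membrane-protecting heat shock protein, had 73.0 and 62.6% heavy at T30 and 55.7 and 39.9% at T0 (1.22, adjusted p = 0.383). HSP26, a small heat shock protein, had 84.1 and 60.9% at T30 and 64.6 and 54.4% at T0 (0.96, adjusted p = 0.523), and the disaggregase HSP104 43.7 and 30.4% at T30 and 36 and 24.5% at T0 (0.44, adjusted p = 0.811). For HSP26 and HSP104 one T30 gradient lay between those at T0, and for HSP12 the groups did not overlap. The T0 gradients held only 43 and 139 reads of HSP12 and 65 and 193 of HSP26, so their T0 shares are not well measured.

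Osmotic genes were split. Of 34 tested 5 (14.7%) rose and 0 fell, with a median of 0.52. Relative to the median gene again 5 rose and 0 fell. Over all genes 2.16% rose and 0.158% fell, or 2.85% and 3.13% relative to the median gene. Of the 28 osmotic genes with 10 CPM in the inputs at each time 1, GCY1, rose and 0 fell, with a median of 0.48. Over all 4714 genes with that level 44 rose and 7 fell. In the inputs 20 of 37 rose. GPP2, the stress-induced glycerol-3-phosphatase, had 5707 and 4323 CPM in the inputs at T30 and 51.6 and 77.3 CPM at T0 (log2 change 6.02), yet its heavy share was 77.5 and 52.7% at T30 and 66.6 and 50.3% at T0 (0.47, adjusted p = 0.811). ENA1, the sodium pump, had 35.7 and 31.9% at T30 and 30.8 and 37.5% at T0 (-0.03, adjusted p = 0.99), on 48 and 80 reads in its T0 gradients. GPD1, which makes glycerol-3-phosphate, had 70.9 and 43.7% at T30 and 40.1 and 31.1% at T0 (1.32, adjusted p = 0.325). The T30 and T0 gradients overlapped for GPP2 and ENA1 and not for GPD1. STL1 had 56.1 and 47.0% at T30 and 10.1 and 2.75% at T0, where its gradients held 3 and 18 reads. Of 27 chaperone genes SSA4 alone rose and none fell (median 0.61), and relative to the median gene 1 rose and 1 fell.

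**Figure D4:**
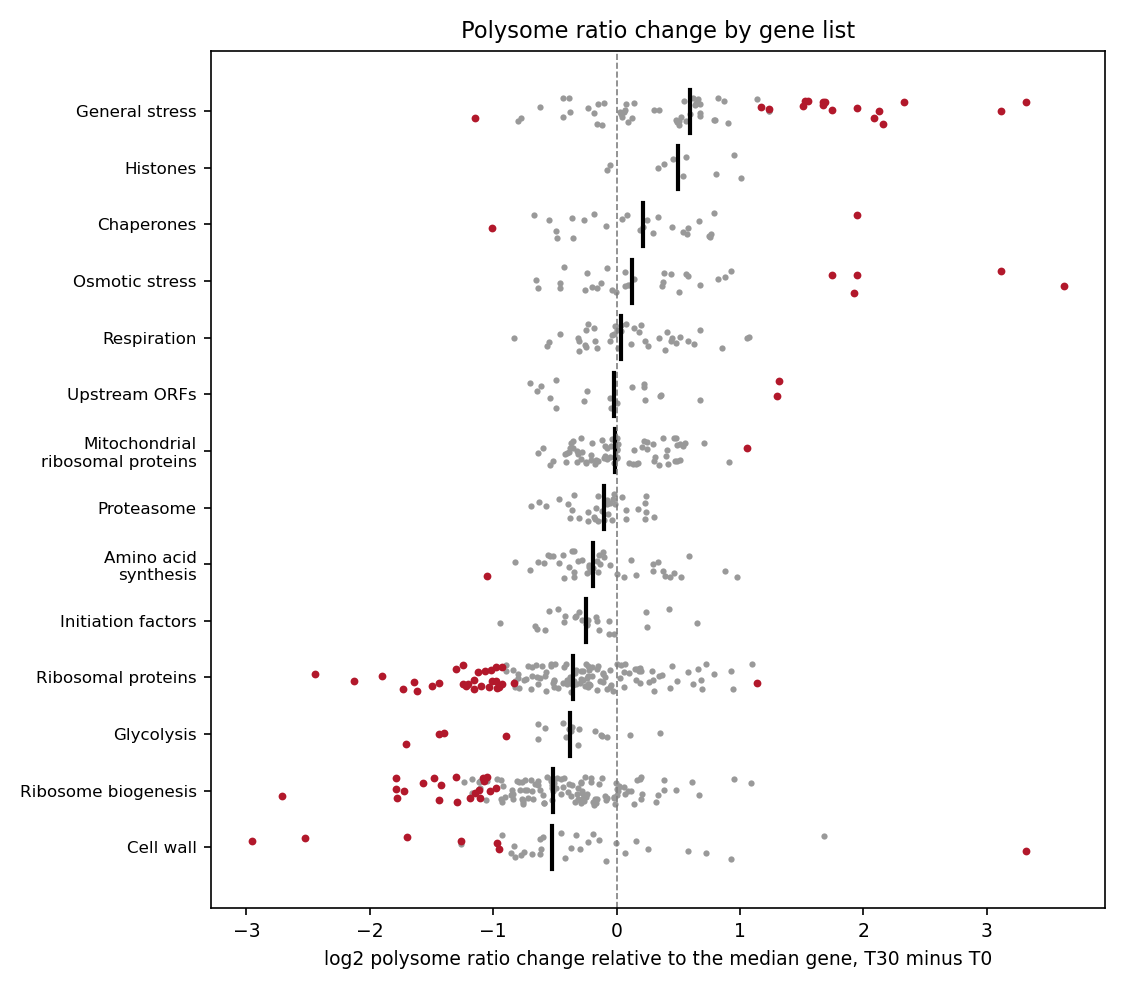
Log2 polysome ratio change relative to the median gene, T30 minus T0, for the members of 14 gene lists. Each point is a gene, red where the change was called, and the black bar is the list's median. General stress genes have their median at 0.60 (0.25 for the 44 with 10 CPM in the inputs at each time), and ribosomal proteins (-0.35), ribosome biogenesis factors (-0.52) and cell wall genes (-0.52) have theirs below 0.

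Most ribosomal protein mRNAs fell in level, and few changed in polysome ratio. In the inputs 112 of 138 fell, and their summed level was 45422 and 57335 CPM at T30 and 143650 and 132020 CPM at T0. Their median heavy share was 69.1 and 62.8% at T30 and 67.3 and 62.6% at T0. The ratio rose for 0 and fell for 2 (1.45%), RPL22B and RPL7B, beside 2.16% and 0.158% of all genes, with a list median of 0.05. Relative to the median gene 1 rose and 28 (20.3%) fell, beside 2.85% and 3.13% of all genes. The list median on that scale was -0.35, with 103 members below 0. With fractions scaled to S. cerevisiae totals the list median was 0.13 beside 0.39 over all genes, a difference of -0.26. RPL15A, a large subunit protein, had 58.5 and 47.3% heavy at T30 and 77.9 and 74.3% at T0 (relative change -1.90, adjusted p = 0.00156). RPL3 had 67.9 and 52.3% at T30 and 76.9 and 69.4% at T0 (relative change -1.25, adjusted p = 0.0124; -0.85 without centring, adjusted p = 0.606). RPL41A, the shortest ribosomal protein gene, is the relative rise, with 47.0 and 39.9% at T30 and 22.8 and 19.2% at T0 (1.14, adjusted p = 0.0206), and its 3R share was 14.6 and 6.88% at T30 and 2.48 and 3.24% at T0 (1.82, adjusted p = 0.00837). Many ribosomal protein, TEF, TDH, ENO, HXT and SSA genes have near-identical copies between which reads could be split, so their single values are uncertain.

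Ribosome biogenesis factors had a median heavy share of 19.1 and 11.5% at T30 and 19.0 and 13.9% at T0. Of 135 tested 0 rose and 1 (0.741%), NSR1, fell, beside 2.16% and 0.158% of all genes. Relative to the median gene 0 rose and 20 (14.8%) fell, beside 2.85% and 3.13% of all genes, with a list median of -0.52. With S. cerevisiae scaling the list median was -0.00 beside 0.39 over all genes, a difference of -0.39. RRS1, needed for large subunit assembly, had 10.9 and 6.44% at T30 and 19.8 and 19.2% at T0 (relative change -1.79, adjusted p = 0.00314). The T30 inputs disagreed on this group: their summed level was 4672 and 20057 CPM at T30 and 17109 and 24722 CPM at T0, and 9 of the members fell in the inputs. RRS1 itself had 5.12 and 50.8 CPM at T30 and 40.4 and 69.6 CPM at T0.

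Among translation factors 0 of 26 initiation factors and 0 of 16 elongation and termination factors passed the test, near the share over all genes, where 2.16% rose and 0.158% fell. Relative to the median gene 0 of the initiation factors and 4 of the elongation factors did, 1 upward and 3 downward. Over all genes 2.85% rose and 3.13% fell on that scale. TEF1, elongation factor 1A, had 78.6 and 68.7% heavy at T30 and 84.6 and 80.3% at T0 (relative change -1.13, adjusted p = 0.00921). ANB1, the eIF5A gene used at low oxygen, had 88.7 and 84.6% at T30 and 74.8 and 65.4% at T0 (relative change 1.06, adjusted p = 0.0148). The groups did not overlap for either gene. PAB1, the poly(A)-binding protein, had 51.2 and 32.5% at T30 and 56.1 and 45.8% at T0 (-0.55, adjusted p = 0.779), and YEF3, elongation factor 3, had 72.2 and 58.3% at T30 and 54.8 and 48.0% at T0 (0.85, adjusted p = 0.618).

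Glycolytic mRNAs stayed in heavy polysomes at both times, with a median heavy share of 78.1 and 58.4% at T30 and 76.4 and 67.9% at T0. None of 20 was called. Relative to the median gene 0 rose and 4 (20%) fell, beside 2.85% and 3.13% of all genes, with a list median of -0.38. TDH3 had 82.9 and 74.1% heavy at T30 and 89.1 and 87.2% at T0 (relative change -1.40, adjusted p = 0.0021), while its 6R> share was 63.8 and 48.5% at T30 and 57.1 and 45.5% at T0. PGK1, phosphoglycerate kinase, had 89.7 and 81.6% heavy at T30 and 90.3 and 89.1% at T0 (relative change -0.89, adjusted p = 0.0198). The TDH3 groups did not overlap in the heavy share and did in 6R>. ACT1, actin, had 86.6 and 74.8% at T30 and 81.6 and 75.7% at T0 (0.24 without centring).

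Cell wall and secreted protein genes, 36 tested, had 2 rises, SPI1 and PIR3, and 2 falls, CCW12 and CIS3, with a median of -0.12. Relative to the median gene they had 1 rise and 6 falls (16.7%), with a median of -0.52. Over all genes 2.85% rose and 3.13% fell on that scale. With S. cerevisiae scaling the list median was 0.06 beside 0.39 over all genes, a difference of -0.33. SPI1 and PIR3 had under 10 CPM in the T0 inputs, and AGA2 did not have 10 CPM in the inputs at each time. Of the 31 members that did, 1 rose and 5 fell relative to the median gene, with a median of -0.57. Beside CCW12 and CIS3 the relative falls include AGA2, the mating adhesin subunit, with 7.25 and 7.61% at T30 and 19.5 and 14.1% at T0 (-1.70, adjusted p = 0.0101), and ECM33, with 46.6 and 37.3% at T30 and 59.3 and 54.1% at T0 (-1.26, adjusted p = 0.0147). CWP1, another wall mannoprotein, had 82.5 and 59.0% at T30 and 63.2 and 50.7% at T0 and was not called (0.98, adjusted p = 0.522).

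In the remaining lists few genes passed. Histone genes had a median change of 0.90 with 0 of 10 called, and their median heavy share was 68.9 and 54.9% at T30 and 49.9 and 40.2% at T0. Respiration genes (42), proteasome subunits (35) and mitochondrial ribosomal proteins (72) had no call, with medians of 0.43, 0.29 and 0.38 close to the 0.36 of all genes. Relative to the median gene MRPL15 was the mitochondrial ribosomal protein gene that rose, with 45.2 and 30.8% at T30 and 21.3 and 15.3% at T0 (1.06, adjusted p = 0.0267). PHO84, the phosphate transporter, fell relative to the median gene, with 13.4 and 11.4% at T30 and 24.7 and 21.5% at T0 (-1.49, adjusted p = 0.00545). HXT3, a glucose transporter, did too, with 21.3 and 14% at T30 and 37.1 and 30.7% at T0 (-1.68, adjusted p = 0.00212). Of 9 hexose transporter genes 2 rose, GAL2 and HXT5, with T0 inputs at 0 and 0 CPM for GAL2 and 0 and 1.78 CPM for HXT5, so that both passed the input minimum through T30 only. Their T0 gradients held 5 and 13 reads of GAL2 and 8 and 24 of HXT5, and with RNP alone as the light class the GAL2 change was -0.69 in place of 1.99. Of the 7 with 10 CPM at each time 0 rose and 0 fell. Mitochondrially encoded mRNAs, which mitochondrial ribosomes read, had a median heavy share of 1.95 and 4.12% at T30 and 3.86 and 5.07% at T0 over the 6 tested.

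Markers of other cell states moved in the inputs. The summed level of 18 meiosis genes was 273 and 277 CPM at T30 and 42.6 and 48.8 CPM at T0, of which the spore wall gene SPS100 made up 194 and 143 CPM at T30 and 0 and 0.595 CPM at T0. SPS100 was the meiosis gene that rose in ratio among 3 tested, with 35.9 and 23.5% heavy at T30 and 12 and 10.4% at T0 (1.67, adjusted p = 0.0136). It passed the input minimum through T30 only, and its T0 heavy shares rest on 2 and 4 reads. The sum over 17 pheromone response genes was 804 and 1064 CPM at T30 and 1482 and 1893 CPM at T0, but its members moved both ways. STE2, the largest member, had 273 and 264 CPM at T30 and 563 and 627 CPM at T0. BAR1, MFA2 and SST2 were also lower in both T30 inputs. PRM1, a mating fusion protein, had 15.9 and 25.4 CPM at T30 and 6.73 and 11.3 CPM at T0. FUS2, KAR4 and PRM2 were also higher in both T30 inputs. The sum thus does not describe the list as a whole. Among the 13 pheromone response genes tested MFA1, an a-factor gene, rose in ratio by 1.62 (adjusted p = 0.0318) and PRM1 by 1.56 (adjusted p = 0.0271). PRM1, at 6.73 and 11.3 CPM in the T0 inputs, passed the input minimum through T30 only, and had 17 and 45 heavy reads at T0. Of the 11 with 10 CPM in the inputs at each time 1 rose and 0 fell. Alpha mating type genes summed to 23.2 and 41.6 CPM at T30 and 31.4 and 21.4 CPM at T0, with MATALPHA1 at 0. Their part in the ratio changes was not tested.

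The position of an mRNA within the ribosome-bearing fractions was summarised by a loading index. This index, the mean ribosome class with 80S as 1 and 6R> as 6, had a median of 4.20 and 3.49 at T30 and 3.29 and 2.89 at T0 (exact two-sided permutation p = 0.333). It rose for 527 genes (10.4%) and fell for 0 in limma, with 1 fall at an unadjusted p under 0.05. The rises numbered 61 without T30 replicate 1, 2301 without T30 replicate 2, 5 without T0 replicate 1 and 2 without T0 replicate 2. Relative to the median gene 269 rose (5.32%) and 306 fell (6.06%). FUN19 had an index of 4.64 and 3.76 at T30 and 2.01 and 2.14 at T0 (2.12, adjusted p = 0.000267). OAZ1, the antizyme of ornithine decarboxylase whose reading needs a frameshift, had 4.41 and 3.70 at T30 and 1.87 and 2.14 at T0 (2.05, adjusted p = 0.000163). The uncharacterised YML053C (2.04, adjusted p = 0.011), the glucose repressor NRG2 (1.99, adjusted p = 0.00878) and NCE103 (1.97, adjusted p = 0.0195) followed. All 5 calls were lost when either T0 gradient was left out. GCN4 had 3.14 and 2.80 at T30 and 1.87 and 1.53 at T0 (1.27, adjusted p = 0.000256), but 0.52 relative to the median gene (adjusted p = 0.266). The largest relative falls were those of NSR1, with 3.39 and 2.60 at T30 and 4.33 and 3.72 at T0, CIS3, CCW12, SHM1, the mitochondrial serine hydroxymethyltransferase, and IRC13, none of which passed without centring. For IRC13 the T0 gradients disagreed, at 4.12 and 2.35, beside 2.52 and 2.52 at T30. By list, 22 of 138 ribosomal protein genes and 15 of 20 glycolytic genes fell relative to the median gene and none rose. Of 65 general stress genes 12 rose and 3 fell. Only 44 of these 65 had 10 CPM in the inputs at each time, and the index counts are not limited to those 44. The others passed the input minimum through T30 only.

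Loading and mRNA level moved together more often than apart. In the inputs 500 genes rose (9.27%) and 380 fell (7.05%) of 5393 tested with edgeR. The counts rest on the T0 inputs: without T0 replicate 1 they were 68 and 15, and without T0 replicate 2 they were 0 and 0, while falls numbered 691 without T30 replicate 2. In the separate RNA-seq libraries 795 genes were called as well as in the inputs, and each of the 795 had the same sign in both sets (r = 0.890 over 5353 genes). The largest input rises were MSC1 (7.09), HBT1 (6.51), RTN2 (6.28), GPP2 (6.02) and SSA4 (5.76), and the largest falls PHO84 (-5.62), the ferric reductase FRE1 (-3.78), the copper transporter CTR1 (-3.76), the phospholipase PLB2 (-3.25) and the polyphosphate synthesis subunit VTC3 (-3.24), all as log2 changes. Of 475 genes that rose in the inputs 76.0% had a ratio change above the median gene, and of 373 that fell 19.6% did, beside 45.7% of 4205 that were not called. The medians of the 3 classes were 0.41, -0.35 and -0.04, and input and ratio changes correlated at r = 0.498 across 5053 genes. Of these genes 4714 had 10 CPM in the inputs at each time. The others passed the input minimum through one time only, and the link was not tested without them.

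Both calls, relative to the median gene, were shared by 91 rising genes, 63.2% of the 144 ratio rises and 19.2% of the 475 input rises. They were shared by 53 falling genes, 33.5% of the 158 ratio falls and 14.2% of the 373 input falls. Only 84 of the 144 ratio rises had 10 CPM in the inputs at each time, against 153 of the 158 falls. Fewer than 10 heavy reads were behind 24 of the rises in T0 replicate 1 and 14 in T0 replicate 2, and behind 0 of the falls. CCW12 fell in loading without an input change that passed the test, at 2960 and 2857 CPM at T30 and 5604 and 4494 CPM at T0 (-1.13, adjusted p = 0.21), and its RNA-seq change was -0.22 (adjusted p = 0.7). NSR1 fell in both, with inputs of 37.8 and 147 CPM at T30 and 587 and 518 CPM at T0 (-3.02, adjusted p = 0.0078).

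A few genes were called in opposite directions, and those named here were chosen after their values were seen. Input rose and relative loading fell for ATG42, a vacuolar carboxypeptidase, YHR140W and YFR052C-A. ATG42 had 399 and 310 CPM in the inputs at T30 and 91.9 and 114 CPM at T0, and 33.3 and 25.1% heavy at T30 against 45.4 and 36.5% at T0 (relative change -1.16, adjusted p = 0.0206). Input fell and relative loading rose for GCN4, YOL014W and KAP123, an importin for ribosomal proteins, with 562 and 954 CPM at T30 and 1798 and 1768 CPM at T0 and 63.8 and 49.2% heavy at T30 against 33.6 and 31.8% at T0 (1.03, adjusted p = 0.0399). The groups did not overlap for either measure in ATG42 or KAP123. In the T0 inputs YHR140W had 2.24 and 6.54 CPM and YFR052C-A 8.97 and 2.38 CPM, so both passed the input minimum through T30 only. YOL014W, with 2.95 and 8.47 CPM in the T30 inputs, passed it through T0 only. Since the sources used here do not state the strand setting of the counting, reading frames that overlap another gene, as YFR052C-A may, are uncertain.

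**Figure D5:**
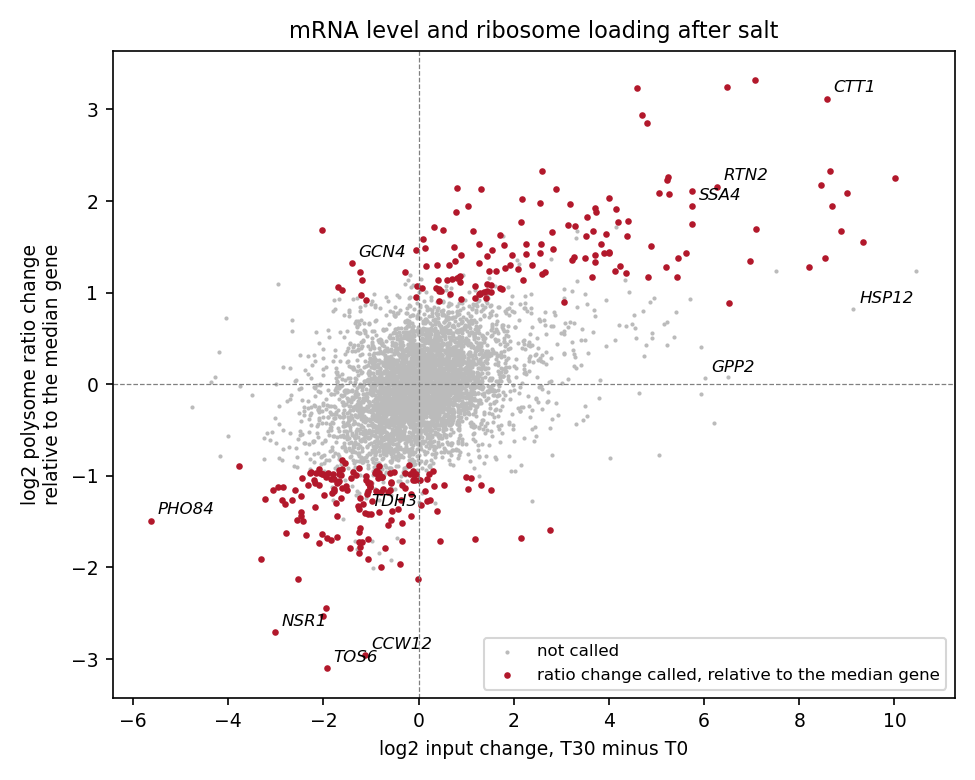
Log2 input change (horizontal) against log2 polysome ratio change relative to the median gene (vertical), T30 minus T0, for the genes tested in both with a read in a T0 input. Red points are genes whose relative ratio change was called. SSA4, RTN2 and CTT1 lie at the upper right, NSR1 and TOS6 at the lower left, and GPP2 near 0 in loading with an input change of 6.02.

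A count test of the 6R> fraction against the input, which does not use the S. pombe reads, called 0 of 5348 genes in either direction with edgeR. At an unadjusted p under 0.05 there were 121 rises and 112 falls, and DESeq2 also called 0, with 125 rises and 91 falls at that level. Without T30 replicate 1 it gave 5 rises and 108 falls. NCE103, SSA4, CCW12 and NSR1, which changed in the polysome ratio, were thus not called in 6R> relative to their input.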

How the data were processed

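Whole-number read counts per S. cerevisiae open reading frame and per S. pombe transcript were used as deposited. The submitters' processing notes list Trimmomatic 0.32, Bowtie2 and HTSeq 0.6.1 as the authors' tools for trimming, alignment and counting, and the sources used here name neither the build and annotation nor a strand setting. Per the labels' protocols, RNA was taken from fractions with phenol and chloroform and made into TruSeq Stranded Total RNA libraries. The table holds 6709 S. cerevisiae rows, of which 6022 matched a RefSeq gene, and 4 emptied lines were not analysed here. Another 70 columns match no labelled sample and were not used. S. pombe counts made up 5.70 to 49.4% of a fraction library.

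Each fraction was divided by its S. pombe total, which assumes that every fraction received the same amount of S. pombe RNA. An offset of 1 read in the deepest library was added for the ratio and the tested shares, and none for the loading index. For the ratio, heavy and light fractions were summed per gene before the test. Shares were tested fraction by fraction and the index as a single value per gradient, so that the gradient is the replicate. The 6R> test took 6R> and input libraries singly, without pairing those of a gradient. Shares, the log2 polysome ratio and the loading index were compared with limma 3.58.1 (eBayes with trend, two-sided, Benjamini-Hochberg over 5053 genes, threshold 0.05). Inputs, the 6R> fraction against input and the RNA-seq libraries were compared with edgeR 4.0.16 (quasi-likelihood, filterByExpr, TMM; R 4.3.3), with DESeq2 1.42.0 as an alternative. Totals and medians were compared by exact permutation over the 4 gradients. The fits were tested on simulated data with known changes. No replicate libraries were copies: the chi-square of their counts per degree of freedom was 1.90 or more.

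Genes named are the 8 largest rises and falls in polysome ratio and the 5 largest in loading index and input among called genes with 10 CPM in the inputs at each time, up to 4 called members per list, and a set of known genes. The members and lists were chosen with earlier results of these data known. Centring each gradient on its median gene was added after seeing the data. Errors after ± are standard errors of fitted log2 changes unless said to be SD.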

Additional observations from a re-analysis of the deposited data

How the results depend on the processing

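Rises in the polysome ratio, 109 as reported, numbered 36 with S. pombe median-ratio size factors, 1436 with each fraction scaled to its S. cerevisiae total, 44 with 10 CPM at each time, 56 with RNP alone as the light class and 360 with edgeR over the 36 fraction libraries. Falls, 8 as reported, numbered 3, 161, 7, 14 and 36 in the same settings, and 16 with 80S left out. Leaving out one gradient gave 2 to 459 rises and 0 to 15 falls. Relative to the median gene there were 144 rises and 158 falls, 147 falls with 10 CPM at each time, and 84 to 319 rises and 54 to 292 falls without one gradient (181 and 260 without T30 replicate 1, 319 and 292 without T30 replicate 2, 54 falls without T0 replicate 1, 62 without T0 replicate 2). Loading index rises, 527, became 1356 with S. cerevisiae scaling, 269 relative to the median gene and 2 to 2301 without one gradient, and its falls, 0, became 134 and 306 in the first 2 of these. Input rises, 500, became 790 and falls, 380, became 186 with S. pombe totals as library sizes, and 0 to 728 and 0 to 691 without one input. In the 6R> test the 0 falls became 5 with no filter, and without one replicate there were 0 to 5 rises and 0 to 108 falls. Share calls over the 9 fractions, 2422, became 1221 with S. pombe median-ratio factors and 1360 to 3971 without one gradient, and 80S falls, 1939, became 765 and 112 to 2381. The difference of the total ratio, 0.08, ran from -0.30 to 0.46 without one gradient. Fits without a replicate leave one sample at a time point, which is assumed to vary like the other group. GAL2 had a ratio change of 1.99 and of -0.69 with RNP alone as the light class. The causes of these changes were not tested. Across the single genes, 1724 ratio values stayed on the same side of the threshold, 265 newly passed, 138 no longer passed and 1 was reversed. The 1724 include values that changed sign but were called in neither fit. T0 replicate 1 is the shallowest gradient, and low T0 counts limit what can be said of genes that were nearly silent before salt.

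With only 2 pairs and no label tying the numbers, replicates share only a number. Deviations from the group means of same-numbered gradients correlated at 0.195 for the ratio, 0.1996 for the inputs and 0.301 for the index. With the replicate block the ratio gave 1057 rises and 81 falls, 405 and 478 relative to the median gene, the loading index 3373 rises and 8 falls, the inputs 599 rises and 584 falls, the shares 5908 calls and the 80S share 3403 falls.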
